A study of Mus musculus with 50 samples.

Results

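The oligodendrocyte and myelin genes are a list of 34 genes that mark the cells which wrap axons in myelin. Their members were found on the Agilent arrays by gene symbol, through the RefSeq accession a probe was designed on. Of the 34 genes, 31 had at least 1 probe, and these 31 genes had 49 probes of the 41174 on the array. For the fit, the probes of a gene were averaged and unnamed probes were kept on their own, which gave 34276 genes and unnamed probes (genes below). Ermn and Myrf had no probe by name. Sox10 could not be matched by accession and is given once, by the description of its probes. By the stage at which they are best known, the list holds 5 precursor and early genes, all with a probe, 5 lineage transcription factors, 3 of them with a probe, and 24 genes of mature oligodendrocytes, 23 of them with a probe.

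RNA was taken from the hippocampus of male C57/BL6j wild-type (WT) mice and of male transgenic (TG) mice on the same background that over-express DCLK-short, a shortened and constitutively active form of doublecortin-like kinase, made by alternative splicing of Dclk1. All animals were housed individually before the experiment, both hippocampi were taken, and no treatment is named for either group. The cells in which the transgene is active, its promoter and the age of the mice are not given in the sources used here. On Agilent, 5 WT and 5 TG mice were compared on 10 two-color arrays, each with 1 WT and 1 TG mouse, and each mouse was on 2 arrays, once in Cy3 and once in Cy5, with a different partner. An array is named by its mice, so that WT1/TG4 held the mice labelled WT1 and TG4.

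Oligodendrocytes arise from precursor cells that carry the growth factor receptor PDGFRA and the proteoglycan NG2, the product of Cspg4. The transcription factors of the OLIG and SOX families set up the lineage, and maturing cells then make large amounts of a few membrane proteins and lipids for the myelin sheath. The hippocampus holds myelinated fibres in the alveus and fimbria beside the neuronal layers, so the amount of white matter taken with the tissue adds to the level of these transcripts. In whole tissue, fewer oligodendrocytes and less RNA per oligodendrocyte cannot be told apart.

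The labels of the Agilent arrays are in doubt, and each direction below is the labelled one. Over the 9985 brighter probes, the channel deviations of a mouse correlated between its 2 arrays with r = 0.409 on average as labelled (-0.151 to 0.909), and with 0.568 (0.143 to 0.909) after arrays 1 to 5 traded labels with arrays 6 to 10. Over 206 bright probes joined to the ABI arrays by accession, the moderated t of TG against WT correlated between the platforms with r = -0.562, and over all 1910 joined probes with -0.207. These correlations are over probes, which share arrays and are not independent. All signs below turn under that exchange of labels, and they are opposite to the direction in which the study gives its Agilent differences. The exchange also changes which arrays share a mouse. The array pairs labelled WT4, WT6, TG4 and WT5 would still share a mouse, and the other pairs would not. Fits below that leave out a mouse or treat it as a replicate block therefore go by the labels. Dclk1 itself had a log2 ratio of TG over WT of -0.07 ± 0.03 (SE, n = 10 arrays, FDR 0.273) over 4 probes, and which of these lie within the transgene is not given in the sources used here, so it checks nothing.

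The promoter sequences of 3 mature genes are shown because SOX10 and OLIG2 are the factors best known to act on such genes. The 250 bases before the start of the RefSeq gene, build GRCm38.p6, are given in the direction of the gene. Capitals mark matches on either strand to the SOX core (ACAAAG or ACAATG) or to the E-box CAGCTG.
Mobp promoter, chr9:120149492-120149741, plus strand: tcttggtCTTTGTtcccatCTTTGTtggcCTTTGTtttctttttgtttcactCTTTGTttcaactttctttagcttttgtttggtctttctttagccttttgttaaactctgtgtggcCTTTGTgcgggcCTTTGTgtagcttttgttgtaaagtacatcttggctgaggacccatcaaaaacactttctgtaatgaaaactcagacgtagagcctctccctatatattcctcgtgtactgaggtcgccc
Cnp promoter, chr11:100574689-100574938, plus strand: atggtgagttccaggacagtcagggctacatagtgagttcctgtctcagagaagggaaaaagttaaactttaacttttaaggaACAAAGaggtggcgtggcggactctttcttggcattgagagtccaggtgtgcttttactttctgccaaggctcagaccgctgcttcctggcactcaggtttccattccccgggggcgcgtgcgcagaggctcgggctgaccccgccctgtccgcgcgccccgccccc
Aspa promoter, chr11:73324638-73324887, minus strand: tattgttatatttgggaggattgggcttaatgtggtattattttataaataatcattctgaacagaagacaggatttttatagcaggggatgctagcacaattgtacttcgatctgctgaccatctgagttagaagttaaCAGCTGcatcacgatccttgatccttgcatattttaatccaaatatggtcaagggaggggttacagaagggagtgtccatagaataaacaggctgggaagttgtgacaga
The Mobp promoter holds 6 SOX core matches on the minus strand of the gene, the Cnp promoter 1, and the Aspa promoter 1 E-box and no SOX core. Among the starts held for members, that of Mobp had the most SOX core matches and that of Aspa the only E-box. The promoters shown are thus not typical of the list. A RefSeq promoter was held for 22 of the 31 members, with 31 starts in all. A SOX core was found before 15 of these 31 starts (48.4%) and before 8292 of all 32851 starts (25.2%). Starts of a gene can overlap, and by gene it was 12 of 22 members (54.5%) and 28.2% of all genes. The E-box was found before 1 start of the members (3.23%) and before 4271 of all starts (13.0%). A match is a description of these letters and not a binding site.

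Most member probes gave a clear signal, and 9 of the 49 carried an outlier flag on at least 1 array. Of the 49 probes, 48 were brighter in both channels of all 10 arrays than 95% of negative control spots, and none was saturated on any array. The scanner software called 47 of them well above background in both channels on all arrays. The exceptions were a Gpr37 probe, which was not well above background on any array, and an Olig2 probe, which was so on 6 arrays.

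**Figure D1:**
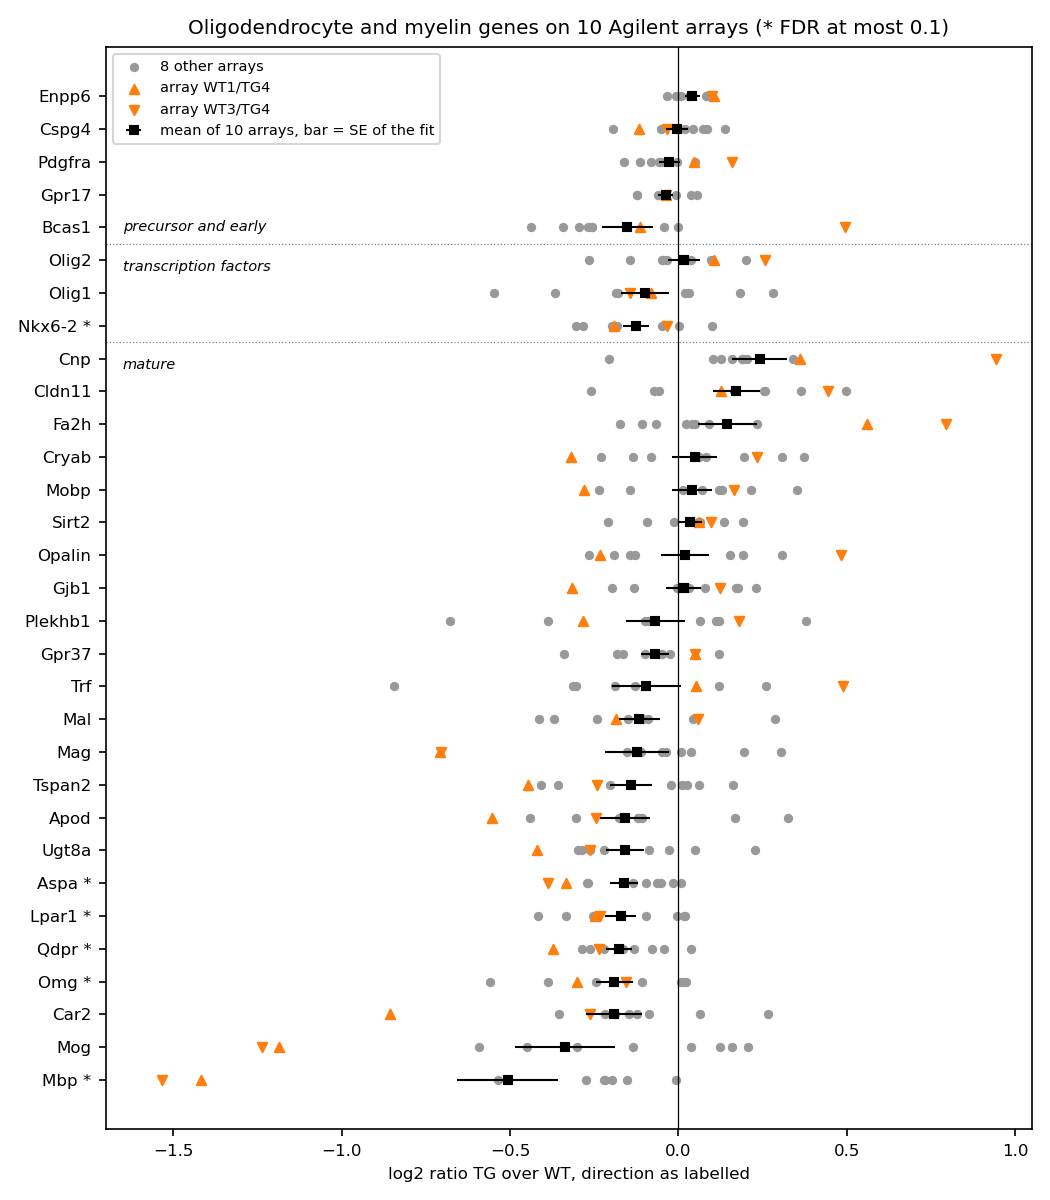
Log2 ratio of TG over WT (x axis, as labelled) for the 31 members with a probe (y axis), grouped by stage. Grey points are 8 arrays, orange triangles the 2 arrays of the mouse labelled TG4, black squares the mean over 10 arrays with the SE of the fit, and a star marks an FDR of at most 0.1. On the TG4 arrays Mbp and Mog lie farthest to the left, and Cnp and Fa2h farthest to the right.

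As labelled, 6 of the 31 members were lower in TG mice at an FDR of 0.1 and none was higher, by the moderated test of limma over 10 arrays (12 of 31 had an unadjusted p under 0.05). Of all 34276 genes, 2835 passed (8.27%), with 1436 lower (4.19%) and 1399 higher (4.08%). The 6 genes were Qdpr, Aspa, Lpar1, Omg, Mbp and Nkx6-2. All were small differences except Mbp. The median log2 ratio was -0.10 over the 31 members and 0.0035 over all genes, and 21 of the 31 were below 0 against 46.9% of all genes. Mbp was the 1 member with the same sign on all 10 arrays, which 2.29% of all genes had.

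The number changed when the arrays under the label of a single mouse were left out. It was 0 without the mouse labelled TG5, WT3 or WT4 (12, 10 and 13 members with an unadjusted p under 0.05), where 2.49%, 1.11% and 0.977% of all genes passed. It was 1 without TG1, TG2 or WT5, beside 3.66%, 3.71% and 2.25% of all genes, 2 without TG3 (3.02%) or WT1 (6.06%), 3 without TG4 (4.73%) and 6 without WT6 (8.77%). Without TG2 the called member was Cldn11, which was higher. Without 1 array it was 1 (WT1/TG4, WT4/TG2 or WT5/TG1, beside 6.26%, 3.75% and 3.05% of all genes), 2 (WT3/TG5 or WT3/TG4, beside 3.52% and 4.56%) or between 4 and 6 (the other arrays, beside 5.31% to 9.23%). With each array centred on its median in place of loess it was 0, with 4 members at an unadjusted p under 0.05 and 3.40% of all genes called.

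None of the precursor and early genes passed the test, and 4 of the 5 had means near 0. Pdgfra, the receptor that drives precursor division, had log2 ratios from -0.16 to 0.16 over the arrays (median -0.05) and a mean of -0.03 ± 0.03 (SE, n = 10 arrays, FDR 0.743). Cspg4, the NG2 proteoglycan of the precursor surface, ranged from -0.19 to 0.14, with a mean of -0.0035 ± 0.03 (FDR 0.979). Gpr17, a receptor of committed precursors, ranged from -0.12 to 0.06, with a mean of -0.04 ± 0.02 (FDR 0.420). For these genes, with probes averaged, the arrays lay close on either side of 0, and Gpr17 had its lowest values on WT5/TG3 and WT4/TG3. The Gpr17 probe nearer the 3′ end had -0.10 ± 0.04 (FDR 0.176 over all probes), with -0.30 on WT3/TG4. The other Gpr17 probe had 0.02 ± 0.04 (FDR 0.865), with 0.23 on that array. Enpp6, a choline phosphodiesterase of newly forming oligodendrocytes, ranged from -0.03 to 0.10, with a mean of 0.04 ± 0.02 (FDR 0.331).

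Bcas1, which marks early myelinating cells, was the exception in that group. Its ratios were -0.44 at the lowest, -0.26 at the median and 0.49 at the highest, and the highest value was on WT3/TG4, while 8 arrays were negative. The mean was -0.15 ± 0.08 (SE, FDR 0.306). Its probes lie 489 genomic bases apart. The one nearer the 3′ end had -0.08 ± 0.15 (FDR 0.857) and reached 1.29 on WT3/TG4, whereas the other had -0.22 ± 0.05 (FDR 0.0345 over all probes) and lay at -0.30 on that array. Without the mouse labelled TG4, Bcas1 was lower, by -0.24 ± 0.05 (SE, n = 8 arrays, FDR 0.0442).

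Of the lineage transcription factors, Nkx6-2 was lower in TG mice and the others did not pass. Nkx6-2, a homeobox factor of maturing oligodendrocytes, had ratios of -0.30 at the lowest, -0.16 at the median and 0.10 at the highest, and was negative on 8 of 10 arrays. Its mean was -0.13 ± 0.04 (SE, FDR 0.0968). Olig1 had -0.10 ± 0.07 (FDR 0.526), with arrays from -0.55 on WT1/TG2 to 0.28 on WT5/TG3. Olig1 differed with the dye, by a dye coefficient of 0.19 ± 0.05 (FDR 0.0230), as did Plekhb1 and Omg among the members, 3 of 31, and 23.9% of all genes. Olig2, which specifies the lineage, had 0.02 ± 0.05 (FDR 0.923), and 1 of its 2 probes is the one well above background on only 6 arrays. The 2 probes described as Sox10, found outside the accession rule, had 0.07 ± 0.05 (FDR 0.559) and -0.01 ± 0.02 (FDR 0.894), the second not well above background on any array.

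Among the genes of mature cells, Mbp had the largest mean difference of all members. It encodes myelin basic protein, which compacts the cytoplasmic faces of myelin. Averaged over 3 probes, its log2 ratio was -1.42 on WT1/TG4 and -1.53 on WT3/TG4, and between -0.54 and -0.0060 on the other 8 arrays. The arrays of the mouse labelled TG4 thus lay apart from all others, and every array was below 0. The mean was -0.51 ± 0.15 (SE, n = 10 arrays, FDR 0.0835), a 1.42-fold difference. Without that mouse it was -0.26 ± 0.06 (n = 8 arrays, FDR 0.0512).

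The 3 Mbp probes did not move alike. The probe nearest the 3′ end had -0.22 ± 0.06 (FDR 0.0543 over all probes), lay between -0.64 and -0.05 and was negative on all 10 arrays, with -0.07 and -0.05 on the TG4 arrays. The probe 10244 genomic bases upstream had -3.98 on WT1/TG4 and -4.32 on WT3/TG4, between -0.98 and 0.15 on the other arrays, and a mean of -1.15 ± 0.45 (FDR 0.187). The probe 26826 genomic bases upstream had -0.14 ± 0.07 (FDR 0.267) and lay between -0.44 and 0.15, with -0.20 and -0.23 on the TG4 arrays. The difference of the TG4 arrays was therefore that of 1 of the 3 probes. The middle probe carried an outlier flag on 2 arrays. With a gene left out, all probes together, on each array where any of them was flagged, Mbp had -0.42 (FDR 0.120).

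Mog, a surface glycoprotein of the outermost myelin layer, had 1 probe. Its ratio was -1.19 on WT1/TG4 and -1.24 on WT3/TG4 and between -0.59 and 0.21 on the others, and 4 of these were above 0. The mean was -0.34 ± 0.15 (SE, FDR 0.242), and -0.12 ± 0.09 (FDR 0.631) without the mouse labelled TG4. Mag, an adhesion protein of the innermost layer next to the axon, had -0.71 and -0.70 on the TG4 arrays and from -0.15 to 0.30 elsewhere. Its mean was -0.12 ± 0.10 (FDR 0.580), and 0.02 ± 0.05 (FDR 0.917) without that mouse, so its sign turned.

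Cnp, an enzyme of non-compact myelin, stood on the other side of 0. Its ratios ran from -0.20 on WT5/TG3 over a median of 0.19 to 0.94 on WT3/TG4, and 9 of 10 arrays were positive. The mean was 0.24 ± 0.08 (SE, FDR 0.125), and 0.14 ± 0.05 (n = 8 arrays, FDR 0.188) without the mouse labelled TG4. Cldn11, the claudin that seals the myelin spiral with tight junctions, ran from -0.26 on WT4/TG2 over 0.21 to 0.50 on WT4/TG3, with a mean of 0.17 ± 0.07 (FDR 0.197). Neither passed, and both had positive means where Mbp, Mog and Mag had negative ones. With the mouse as a replicate block Cnp passed (FDR 0.0612 for the WT mouse and 0.0851 for the TG mouse). Cldn11 passed with the WT mouse as block (FDR 0.0898). These blocked fits called 15.2% (WT mouse) and 12.3% (TG mouse) of all genes against 8.27% without blocks, at negative consensus correlations. Cnp also passed with robust regression, beside 8.89% of all genes. Mobp, a small basic protein of compact myelin, had 0.04 ± 0.06 (FDR 0.818) over 2 probes that moved apart, and Opalin, a membrane protein of central myelin, had 0.02 ± 0.07 (FDR 0.945).

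The other members called were enzymes, a receptor and a surface protein. Qdpr recycles the biopterin cofactor of amino acid hydroxylases. Its ratios were -0.37 at the lowest, -0.19 at the median and 0.04 at the highest, on WT6/TG1, and 9 of 10 arrays were negative. The mean was -0.18 ± 0.04 (SE, n = 10 arrays, FDR 0.0336), the lowest FDR of the members, and without the mouse labelled TG4 it was -0.14 ± 0.04 (FDR 0.0910). Omg, a myelin-associated inhibitor of neurite growth that neurons express as well, ran from -0.56 on WT4/TG2 over -0.17 to 0.02, and was above 0 on WT1/TG2, WT4/TG3 and WT6/TG5. Its mean was -0.19 ± 0.06 (FDR 0.0781).

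Aspa, which frees acetate from N-acetylaspartate for lipid synthesis, had ratios of -0.39 at the lowest, -0.12 at the median and 0.0080 at the highest. The mean was -0.16 ± 0.04 (SE, FDR 0.0588). Its probe nearest the 3′ end, on chromosome 11 from 73031208 to 73031267, was negative on all 10 arrays, from -0.48 to -0.10, with a mean of -0.27 ± 0.04 (FDR 0.00725 over all probes). Its other probe, 8022 genomic bases upstream, had -0.05 ± 0.06 (FDR 0.746). The probes were thus unlike each other, and 1 of them carried the difference.

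Lpar1, a lysophosphatidic acid receptor of maturing oligodendrocytes, ran from -0.42 on WT5/TG1 over -0.20 to 0.02, and 8 of 10 arrays were negative. Its mean was -0.17 ± 0.05 (SE, FDR 0.0588). Its probes had like means, -0.19 ± 0.07 (FDR 0.139) and -0.16 ± 0.06 (FDR 0.214), and neither passed alone. Over all 49 member probes, 5 passed (Aspa, Bcas1, Qdpr, Mbp and Omg, 1 each), all lower, against 7.41% of all probes. The positions of the probes are those of the files, which name no build.

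The lipid genes differed in sign. Ugt8a, which makes the galactolipids of myelin, had -0.16 ± 0.06 (SE, FDR 0.140), with 8 of 10 arrays negative and like means for its 2 probes. Fa2h, which hydroxylates their fatty acids, had 0.14 ± 0.09 (FDR 0.424), and this mean rested on 0.56 and 0.80 on the TG4 arrays, since without them it was 0.01 ± 0.04 (FDR 0.964). Apod, a lipocalin, had -0.16 ± 0.07 (FDR 0.280), and Mal, a lipid raft protein, -0.12 ± 0.06 (FDR 0.335). Car2, a carbonic anhydrase, had -0.19 ± 0.08 (FDR 0.234) with -0.86 on WT1/TG4, and Tspan2, a tetraspanin, -0.14 ± 0.06 (FDR 0.241).

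The other 6 mature members, Trf, Gpr37, Plekhb1, Gjb1, Cryab and Sirt2, had means between -0.10 and 0.05 with FDRs from 0.404 to 0.936. Trf, the iron carrier transferrin, had the widest range of these, from -0.85 on WT5/TG3 to 0.49 on WT3/TG4. Gjb1, the connexin of oligodendrocyte gap junctions, ran from -0.32 to 0.23.

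**Figure D2:**
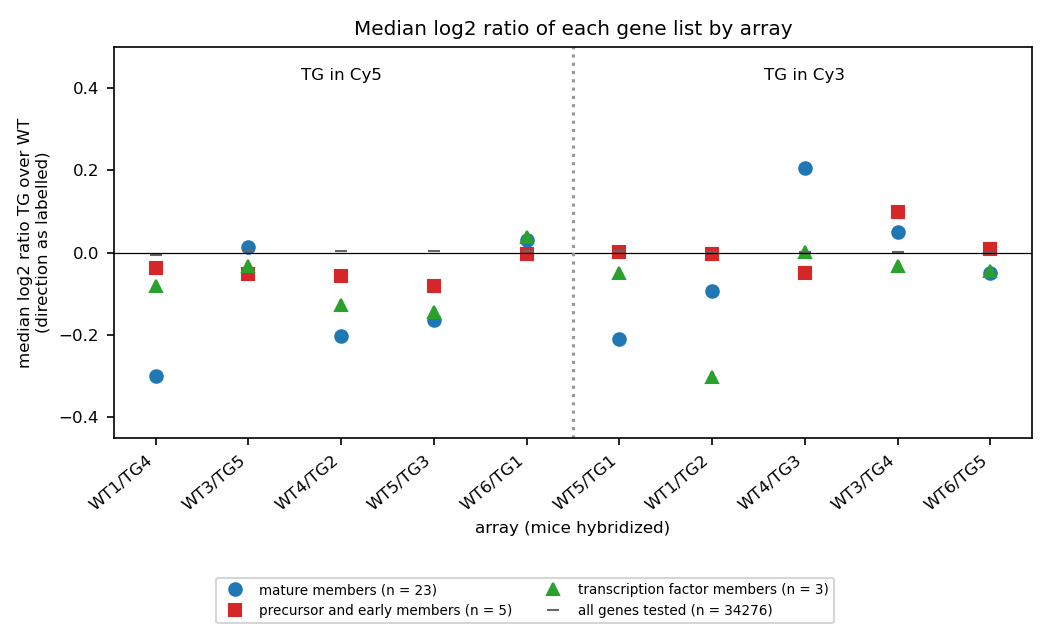
Median log2 ratio of TG over WT (y axis, as labelled) on each of 10 arrays (x axis), for the 23 mature members, 5 precursor and early members, 3 transcription factors and all 34276 genes tested. The mature median ran from -0.30 on WT1/TG4 to 0.21 on WT4/TG3, the precursor median from -0.08 to 0.10.

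By stage, the mature members ran wider over the arrays than the precursor and early members in the main fit, without background correction. With the scanner's ratio, corrected for background and dye, the SE rose from 0.02 to 0.05 for Enpp6 and from 0.03 to 0.05 for Pdgfra. Of the mature members, it rose from 0.08 to 0.09 for Cnp, from 0.15 to 0.17 for Mbp and from 0.06 to 0.11 for Ugt8a. The part of signal level in these widths was not tested. The median over the 23 mature members was -0.12 with 5 called, and over the 5 precursor and early members -0.03 with 0 called by limma and 0 with an unadjusted p under 0.05. With arrays centred on the median in place of loess these medians were -0.02 and -0.02, with robust regression -0.07 and -0.03, and with the probe nearest the 3′ end -0.07 and -0.04. On single arrays the mature median was -0.30 at the lowest and 0.21 at the highest and was below 0 on 6 of 10 arrays. The precursor median stayed between -0.08 and 0.10. The mature median minus the precursor median was -0.26 on WT1/TG4, -0.07 at the median array and 0.26 on WT4/TG3, with 7 of 10 arrays below 0 and an SD of 0.15. The sign thus differed among arrays, and the difference between the stages was not tested, since genes are not replicates.

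The mature median differed between the arrays of 1 mouse. WT4 was on WT4/TG2 and WT4/TG3, where it was -0.20 and 0.21. TG4 was on WT1/TG4 and WT3/TG4, where it was -0.30 and 0.05. WT6, on WT6/TG1 and WT6/TG5, gave 0.03 and -0.05. Within the list, the Pearson correlation over 10 arrays had a median of 0.27 over the 253 pairs of mature members, and 71.9% of the pairs were above 0. Without the TG4 arrays it was 0.27 over 8 arrays. For the 10 pairs of precursor and early members it was 0.03, for the 703 pairs of the further oligodendrocyte genes 0.05, for microglia markers 0.32 and for markers of choroid plexus and ependyma 0.59. Arrays share mice, so these are descriptions.

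The median SD over 10 arrays was 0.23 for the mature members, 0.09 for the precursor and early members and 0.12 for all genes. It was 0.33 for neuron markers, 0.23 for choroid plexus, 0.22 for astrocyte and 0.22 for microglia markers, so a wide spread was not particular to the mature members. Without the TG4 arrays it was 0.19 for the mature members, 0.07 for the precursor and early members and 0.11 for all genes.

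**Figure D3:**
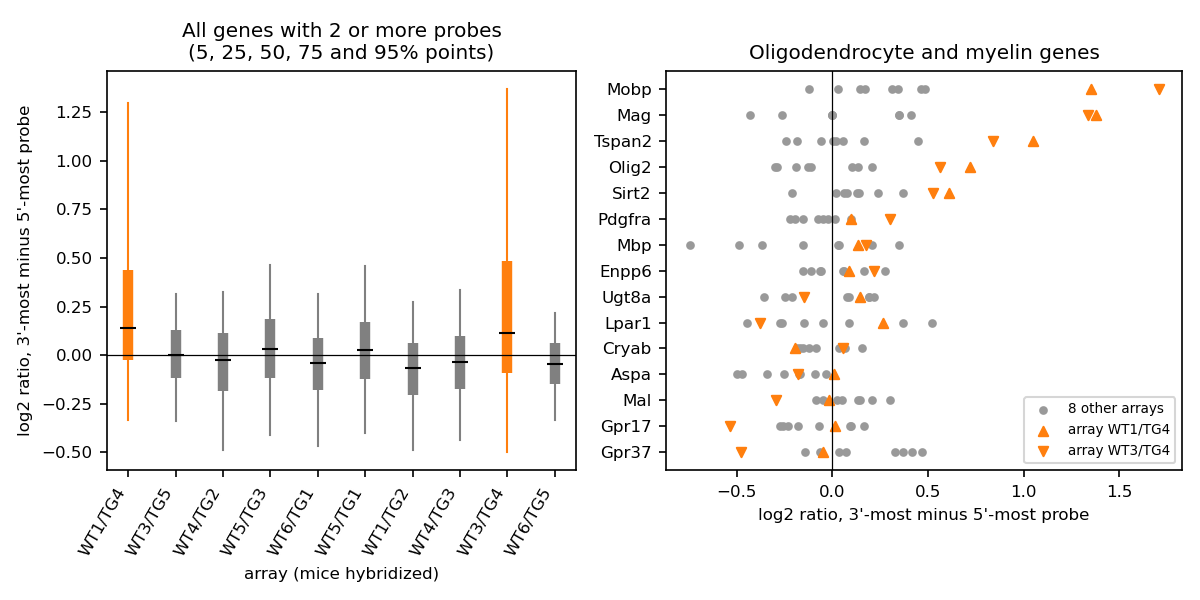
Log2 ratio of the 3′-most minus that of the 5′-most probe of a gene. The left panel gives the 5, 25, 50, 75 and 95% points over 4566 genes on each array (x axis), the right panel the 15 members with such a pair (y axis), with the 2 TG4 arrays in orange. On these arrays the spread over genes was widest, and of the members Mobp, Mag and Tspan2 had the largest gaps.

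On the arrays of the mouse labelled TG4, the ratio of a gene depended on where along the transcript its probe lay. Over 4566 genes whose outermost probes were at least 500 genomic bases apart, the 3′-most minus the 5′-most log2 ratio had a median of 0.14 on WT1/TG4 and 0.12 on WT3/TG4, and between -0.07 and 0.03 on the 8 other arrays. Its SD was 0.56 and 0.61 on the TG4 arrays and 0.17 to 0.27 on the others. A gap of over 1 in size was found for 9.46% and 11.3% of genes on the TG4 arrays and for at most 0.679% on any other. The files give no measure of RNA quality for a mouse, and the part of the probe position in the members' values was not tested beyond the fits with single probes.

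For 15 members such a pair of probes was held, and those of Mobp, Mag and Tspan2 moved apart. For Mobp, on chromosome 9, the 5′ probe from 120177842 to 120177901 had -0.95 on WT1/TG4 and -0.69 on WT3/TG4, and the 3′ probe from 120185613 to 120185672 had 0.40 and 1.02. For Mag, on chromosome 7, the 5′ probe from 26319071 to 26319130 had -1.40 and -1.37, and the 3′ probe from 26310883 to 26310941 had -0.02 and -0.03. For Tspan2, on chromosome 3, the 5′ probe from 102198030 to 102198089 had -0.97 and -0.66, and the 3′ probe from 102199812 to 102199871 had 0.08 and 0.18. In these genes the upstream probe was low on the TG4 arrays, and the downstream probe was near or above 0.

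Not all members followed that order. The gap averaged over the TG4 arrays was 1.53 for Mobp, 1.36 for Mag, 0.94 for Tspan2, 0.64 for Olig2 and 0.57 for Sirt2. It was -0.26 for Gpr17 and Gpr37, and for Mbp, whose middle probe stood apart, 0.16 between the outer probes. The 3′ probe of Gpr37 was not well above background on any array, and the 5′ probe of Olig2 was so on only 6. On WT1/TG4 the gap was positive in 12 of the 15 members and on WT3/TG4 in 9. Taken over 10 arrays, the probes of 5 of the 16 members with more than 1 probe had means of opposite sign.

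**Figure D4:**
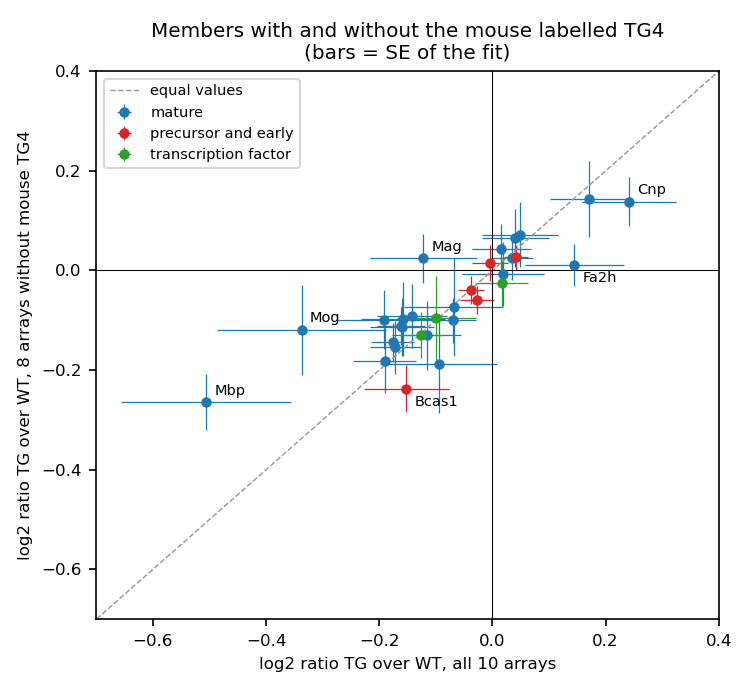
Log2 ratio of TG over WT of the 31 members, over all 10 arrays (x axis) and over the 8 arrays without the mouse labelled TG4 (y axis), both as labelled, with the SE of the fit as bars and color by stage. Mbp, Mog, Mag, Cnp and Fa2h lie closer to 0 without that mouse, and Bcas1 lies farther from 0.

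Without the mouse labelled TG4, 3 members were called, all lower, against 4.73% of all genes (2.36% lower and 2.37% higher). Mbp and Qdpr were called in both fits and Bcas1 in this one alone. Aspa had -0.11 ± 0.04 (FDR 0.157), Lpar1 -0.15 ± 0.05 (FDR 0.167), Nkx6-2 -0.13 ± 0.05 (FDR 0.177) and Omg -0.18 ± 0.06 (FDR 0.182). The median was -0.10 for the mature members and -0.04 for the precursor and early members. Under the exchange of labels, the 2 arrays would share the mouse WT5 in place of TG4.

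With the probe nearest the 3′ end in place of the mean of the probes, a choice made after seeing the data, 4 members were called, all lower, against 7.73% of all genes. With the probe farthest from it, 3 were, against 6.30%. Under the first choice Lpar1 had -0.19 (FDR 0.134) and Nkx6-2, which has 1 probe, -0.13 (FDR 0.102). Under the second, Mbp had -0.14 (FDR 0.282), Aspa -0.05 (FDR 0.764) and Lpar1 -0.16 (FDR 0.228).

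A further list of 42 oligodendrocyte genes held 38 with a probe. At an FDR of 0.1, 7 of the 38 were lower and 4 higher (28.9% called), against 4.19% and 4.08% of all genes (8.27% called). With only probes above negative controls kept, 11 of the 38 were called, against 11.4% of all genes. The median log2 ratio of the 38 was -0.0046. The 5 with the smallest p were the lipid kinase gene Pip4k2a, Evi2a, a membrane protein gene inside an intron of Nf1, the kinase Sgk1, the creatine enzyme Gamt and the growth factor Bmp4. Pip4k2a had -0.28 ± 0.04 (SE, FDR 0.0132) and was negative on all 10 arrays, Evi2a -0.33 ± 0.07 (FDR 0.0244) and Sgk1 -0.25 ± 0.05 (FDR 0.0285). Gamt was higher, with 0.14 ± 0.03 (FDR 0.0296), and so was Bmp4, with 0.15 ± 0.03 (FDR 0.0386). Without the mouse labelled TG4, 6 of the 38 were called, against 4.73% of all genes.

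Lists of other cells gave these values beside the members, where 8.27% of all genes were called, 4.19% lower and 4.08% higher. These lists are short, so a single called gene moves the share of a list widely. Neuron markers had a median log2 ratio of 0.23 (1 of 9 called, higher, and 7 with an unadjusted p under 0.05) and were above 0 on all 10 arrays, from 0.0067 to 0.53 on WT1/TG4. Astrocyte markers had 0.11 (2 of 10 called, both higher), microglia markers -0.01 (3 of 10, all lower), and endothelial markers -0.06 (1 of 10, lower). Markers of choroid plexus and ependyma had -0.05 (0 of 6 by limma, 1 with an unadjusted p under 0.05), and ran from -0.31 on WT6/TG5 and WT1/TG4 to 0.33 on WT3/TG5. Markers of thalamus, which borders the hippocampus and is rich in fibres, had -0.04 (0 of 6 by limma, 0 with an unadjusted p under 0.05). On WT1/TG4 the mature members (-0.30), microglia (-0.28) and choroid plexus markers (-0.31) were low and the neuron markers were at their highest. On WT3/TG4 the neuron markers were at 0.43, the mature members at 0.05 and the microglia markers at -0.0066, and on WT6/TG1 the microglia markers were at -0.28 and the mature members at 0.03. Their part in the members' ratios was not tested.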

How the data were processed

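Agilent arrays were read from the scanner output of 10 two-color hybridizations. The authors deposited mean and median pixel intensities of each spot, without normalization or background correction, and, per the file headers, log10 ratios corrected for background and dye by Agilent Feature Extraction 8.5.1.1. ABI intensities were deposited as raw signals, were quantile-normalized here and served for the label check alone, since no member was among the 311 ABI probes that could be named. Illumina values were not used: 80 columns of per-sample values are named by chip position. The other platforms were not analysed here.

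Agilent positions are those of the files, whose build is not given in the sources used here, and a probe counted as present above the 95th percentile of 314 negative control spots. Mean intensities were normalized by loess within arrays with limma 3.58.1 in R 4.3.3, without background correction, spots of a probe and probes of a gene were averaged, and the mean log2 ratio was tested against 0 over 10 arrays (lmFit, eBayes; Benjamini-Hochberg over 34276 genes, FDR 0.1). Symbols came by accession for 22072 probes and by description for 3491, and 15611 probes kept their identifier. No filter was applied. The number of mice, 5 per group, and the number of arrays limit the precision. Both arrays of a mouse entered as observations, so p-values measure the spread between arrays. The log ratio model follows the study's methods. Alternatives were other background correction, centring and probe choices, a dye term, mouse blocks (statmod 1.5.0), robust regression and leaving out arrays or mice; probe position and outlier flags were added after seeing the data. Named genes are all members with a probe, the 5 further oligodendrocyte genes with the smallest p, and Dclk1. The members and lists were chosen with earlier results of these data known. Scripts were tested on simulated data.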

Additional observations from a re-analysis of the deposited data

Results flagged for a closer look

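In the 62 groups of 5 arrays of one dye orientation (31 members each), 7 held an array far from the others by Dixon's criterion, which chance gives for about 1 in 20 groups. Of these, 4 were arrays of the mouse labelled TG4: Mbp on WT1/TG4 (-1.42) and on WT3/TG4 (-1.53), Mag on WT3/TG4 (-0.70) and Cnp on WT3/TG4 (0.94). The others were Cldn11 on WT4/TG2 (-0.26), Gpr17 on WT5/TG3 (-0.12) and Apod on WT4/TG3 (0.33).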

How the results depend on the processing

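At an FDR of 0.05, 1273 genes passed in place of 2835, with 1 member in place of 6 and 6 further oligodendrocyte genes in place of 11. With arrays centred on the median in place of loess, 1164 genes passed, 1058 higher and 106 lower against 1399 and 1436, with 0 members by limma (4 with an unadjusted p under 0.05) and 2 further genes. One value per mouse gave 10594 genes, 19 members and 17 further genes, but removing the array mean makes the mice of an array mirror each other, so that the spread is understated. The scanner's log ratio gave 3 members (2128 genes), robust regression 9 lower and 1 higher, Cnp, 10 in all (3048 genes), and the probe farthest from the 3′ end 3 members and 6 further genes (2160 genes). With the mouse as a replicate block, 5203 genes (WT mouse) and 4224 (TG mouse) passed, with 9 and 8 members, at consensus correlations of -0.252 and -0.163. The blocked fits added Cnp, Ugt8a (FDR 0.0590 and 0.0941) and, for the WT mouse, Cldn11.

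Leaving out an array or a mouse gave between 335 and 3162 genes, 0 to 6 members and 1 to 10 further genes. There the median ran from -0.13 to -0.08 for the mature members and from -0.04 to -0.0067 for the precursor and early members. Median centring moved the mature median farthest, from -0.12 to -0.02. Signs turned for Olig2 with the scanner's ratio (-0.034) and the probe farthest from the 3′ end (-0.019). With median centring Olig1 had 0.0056, Trf 0.010, Plekhb1 0.063 and Cspg4 0.042. With the brightest probe Mag had 0.035 and Mobp -0.20, with robust regression Cspg4 had 0.0026, and with the probe nearest the 3′ end Mag had 0.035. With the farthest probe Mobp had -0.20, Gpr17 0.021 and Sirt2 -0.10. Leaving out an array or a mouse moved Mag from -0.18 to 0.024, Mobp from -0.0019 to 0.10, Opalin from -0.055 to 0.073, Gjb1 from -0.019 to 0.076, Olig2 from -0.025 to 0.060, Trf from -0.20 to 0.026, Cryab from -0.0067 to 0.11 and Cspg4 from -0.027 to 0.018. The cause was not tested.

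Of the called members, Qdpr passed in 14 of 15 other settings and in 16 of 20 fits that left out an array or a mouse, Aspa in 12 and 7, Lpar1 in 11 and 7, Mbp in 11 and 5, Omg in 11 and 4, and Nkx6-2 in 10 and 2. Among the 15 settings, quantile normalization of average intensities after loess left the log ratios unchanged, so its calls repeat the main fit. The setting with a single value per mouse understates the spread and called 30.9% of all genes. Each called member passed in both, which raises the counts out of 15. No ABI probe could be named for a member, so the alternatives planned for them were not run.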
